A study of Danio rerio with 40 samples.

Results

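The larvae described here are the 5 quadruple knockout (qKO) pools of a zebrafish series, compared within their own genotype as pools 1 and 2 against pools 3, 4 and 5. The division was chosen from the gene levels of these same libraries, so 2 pools stand against 3, of 40 samples in the whole series, and no difference in gene levels between the sets is tested below. The series asks how loss of smad3 bears on aortic disease in fish lacking smad6, and its other 30 samples (adult aortas and double knockouts, with their controls) were not analysed here. Each qKO pool held 5 whole larvae of genotype smad3a-/-;smad3b-/-;smad6a-/-;smad6b-/- at 5 days post fertilization (dpf), and 5 pools of wild-type control cousins of the same age and pool size stand beside them for reference. All 10 pools came from embryos raised in E3 medium containing methylene blue at 27°C, from which total RNA was sequenced with a stranded total RNA kit. A pool averages whole bodies of 5 animals and gives no value for one tissue. The labels call the pools biological replicates and name no clutch, collection hour or library batch, so these cannot be told apart as sources of the sets.

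Genes of the circadian clock and of the exocrine pancreas had the widest differences between the sets, and the clock is described first. In vertebrates the activators Clock and Bmal (arntl in fish) switch on the period and cryptochrome genes, whose proteins then switch the activators off, and the REV-ERB and ROR receptors add another loop that acts on Bmal. In zebrafish larvae most tissues carry a clock that light can set directly, so the levels of clock transcripts depend on the hour and on the light history of the animals. The clock passes its rhythm on through factors such as Dbp, Tef and Nfil3, and digestive, hormonal and cell division genes are among the rhythmic genes of many vertebrates.

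The targeted genes set the genotype apart in every pool and set the pools of one genotype apart by little. Transcripts of smad3a, an intracellular transducer of TGF-beta signalling, stood at 12.8 and 12.3 CPM (counts scaled to the library size, with TMM) in qKO pools 1 and 2, at 9.73, 8.80 and 11.3 CPM in pools 3 to 5 and at 37.1 to 46.1 CPM in controls. Those of smad3b stood at 6.93 and 6.99 and at 5.98, 6.68 and 6.00 CPM, against 13.3 to 14.5 CPM in controls. All qKO pools of both sets lay below every control for this pair, with adjusted p = 4.16e-07 and 5.11e-06 between the genotypes (edgeR's quasi-likelihood test, Benjamini-Hochberg). The inhibitors smad6a and smad6b were higher than controls in all qKO pools (adjusted p = 0.0049 and 7.2e-05, edgeR), so their transcript levels do not show the loss that the labels give. Between the qKO sets the mean log2 levels of the 4 genes differed by 0.34, 0.16, -0.17 and 0.02 in the order smad3a, smad3b, smad6a, smad6b, counted as pools 1 and 2 minus pools 3 to 5.

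The sets overlapped in depth. Total counts ranged from 25081743 to 58975921 in pools 1 and 2 and from 20752303 to 191289475 in pools 3 to 5, and the number of genes with at least 1 count from 25438 to 26291 and from 25099 to 27141 (two-sided exact permutation p = 0.8 for each measure, where the smallest p that 10 assignments allow is 0.1). A count of 3, taken as the floor for a gene without reads, stood for 0.0157 to 0.145 CPM in the qKO libraries. The 20 most counted genes took 13.8% and 14.0% of counts in pools 2 and 1 and 11.7% to 12.5% in pools 3 to 5. All 40 markers of 10 cell types reached at least 1 CPM in all 5 qKO pools. The summed markers of exocrine pancreas ran from 2058 to 3874 CPM in pools 1 and 2 and from 734 to 1328 CPM in pools 3 to 5, those of skin from 11390 to 12122 and from 7646 to 9940 CPM, of skeletal muscle from 15667 to 16431 and from 13083 to 14246 CPM, and of photoreceptors from 4191 to 4604 and from 2882 to 3352 CPM. Nervous system markers (984 to 1066 against 1008 to 1012 CPM), liver markers (3024 to 3500 against 3355 to 3798 CPM), neutrophil and macrophage markers (27.1 to 30.1 against 27.7 to 31.0 CPM) and lens markers (541 to 759 against 487 to 689 CPM) overlapped between the sets. Enterocyte markers overlapped as well (728 to 1179 against 712 to 775 CPM), and erythrocyte markers (149 to 247 against 65.7 to 144 CPM) did not.

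Across the transcriptome, 639 of 22894 genes past the filter on low counts (2.79%) stood at least 2-fold higher in pools 1 and 2 without overlap between the sets, and 182 (0.795%) at least 2-fold lower. Genes that meet this rule of size and of no overlap are called separated below, and together they made up 3.59% of the genes. The shares of 2.79% higher and 0.795% lower are the background for the counts of separated members per list. Liver (2.27%), skin (2.38%) and heat shock lists (2.44%) had shares of higher members near it. Where values of both sets are given, those of pools 1 and 2 come before those of pools 3, 4 and 5. The rule rests on the same levels that chose the sets, so these counts describe the pools and test nothing. Of the separated genes 77.8% stood higher in pools 1 and 2, and 66.8% did so when libraries were scaled by their totals alone, a scaling that moved the median of all genes by -0.10 on the log2 scale. With the 20 most counted genes left out, 641 higher and 182 lower genes were separated. At least 4-fold differences numbered 109 higher and 19 lower, and at least 8-fold differences 25 and 5. Most of the transcriptome differed by much less: the median absolute log2 difference was 0.19, and the 5th and 95th percentiles were -0.52 and 0.77.

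Comparisons of single pools rest on the same levels that chose the sets, so they describe the division and test nothing. Between the pools of one set, 715 to 889 genes differed by 2-fold or more, with 719 between pools 1 and 2, and between pools of different sets 1069 to 1807 genes did. Spearman correlations across genes were 0.991 to 0.994 within sets and 0.979 to 0.986 between them (n = 22894 genes, which are not independent). Pool 3 was the nearest of its set to pools 1 and 2, with 1147 and 1069 genes, and pool 4 the farthest, with 1706 and 1807. These numbers of genes were not taken at equal depth, and pool 4 had the smallest qKO total, 20752303 counts. Control pools grouped by the same numbers differed in 280 to 778 genes within sets and in 997 to 1195 between them. The 778 lay between control pools 1 and 2, which had the smallest control totals, 16062147 and 28819083 counts.

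Of all named genes the REV-ERB receptor gene nr1d1 had the largest difference, and the other members of its family had smaller ones. The repressor nr1d1 reached 334 and 352 CPM in pools 1 and 2 but only 1.80, 1.59 and 2.62 CPM in pools 3 to 5, a log2 difference of 7.43 (SE 0.22, from the spread within the sets of 2 and 3 pools). Its paralog nr1d2a stood at 302 and 265 CPM and at 70.7, 28.0 and 34.6 CPM, and nr1d2b at 265 and 289 CPM and at 31.7, 37.2 and 60.7 CPM (log2 differences 2.79 and 2.73). No value of these 3 genes overlapped between the sets, and pools 1 and 2 lay close to each other in all 3. The control means lay between the qKO sets, with controls at 8.44 to 48.0 CPM for nr1d1, at 62.6 to 101 CPM for nr1d2a and at 126 to 231 CPM for nr1d2b.

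A further pair of REV-ERB family receptors, nr1d4a and nr1d4b, differed from the first 3 in where the controls lay. Pools 1 and 2 held 56.7 and 79.0 CPM of nr1d4b and pools 3 to 5 held 17.6, 18.8 and 8.10 CPM, with every control lower still at 2.00 to 3.66 CPM. For nr1d4a the levels were 20.2 and 24.9 CPM, 6.95, 6.42 and 3.00 CPM and, in controls, 1.404 to 1.80 CPM. Both genes were higher than controls in all 5 qKO pools (genotype adjusted p = 0.006 for nr1d4a and 0.00448 for nr1d4b, edgeR), so their spread between the sets lay on top of a difference between genotypes. The ROR receptors, which activate Bmal, did not share this pattern: roraa, rorab, rorb and rorca differed by -0.13, -0.24, -0.41 and 0.06 on the log2 scale and were not separated. The exception was rorcb, with 36.6 and 39.7 CPM in pools 1 and 2 against 96.2, 59.0 and 85.2 CPM in pools 3 to 5 (log2 difference -1.04, SE 0.22). In all, 5 of the 10 receptors were separated with higher levels in pools 1 and 2 and 1 with lower levels (2.79% and 0.795% of all genes).

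In the clock repressor list, 9 of 16 genes past the filter were separated with higher levels in pools 1 and 2 and 1 with lower levels (2.79% and 0.795% of all genes). The median log2 difference of the list was 1.64, against 0.00 over all genes. The period gene per1a stood at 74.7 and 78.3 CPM and at 1.53, 0.354 and 1.099 CPM (log2 difference 6.44, SE 0.61). Its paralog per1b stood at 138 and 198 CPM and at 3.78, 3.98 and 12.71 CPM. The value of per1b in pool 5 was more than that of pools 3 and 4 but far under both pools of the other set. For per3 pool 5 stood apart in the same way, at 39.4 CPM against 83.9 and 79.0 CPM in pools 1 and 2 and 10.17 and 9.91 CPM in pools 3 and 4. The light-responsive period gene per2 had the smallest difference of the family, with 83.7 and 125 CPM and 56.3, 58.6 and 67.1 CPM, and was not separated (log2 difference 0.76, and 0.47 without pool 2).

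The homolog of the mammalian CLOCK-BMAL1 repressor Chrono, ciarta, held 121 and 128 CPM in pools 1 and 2 and 10.6, 13.8 and 15.1 CPM in pools 3 to 5 (log2 difference 3.26, SE 0.16). The E-box repressor bhlhe41 held 54.1 and 58.3 CPM and 10.6, 7.43 and 7.60 CPM, and bhlhe40 held 202 and 230.2 CPM and 27.7, 20.7 and 68.4 CPM. In ciartb the levels were 17.1 and 18.1 CPM and 3.39, 3.89 and 3.90 CPM. Pools 1 and 2 lay close to each other for all 4 of these genes, and pool 5 was the highest of its set for bhlhe40 and ciarta. Outside the lists, cipca, a relative of a mammalian inhibitor of CLOCK, stood among the 10 largest differences at 19.8 and 25.1 CPM against 0.934, 0.664 and 1.32 CPM (log2 difference 4.53).

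The cryptochromes did not share one direction. The genes cry2 (43.7 and 60.7 CPM in pools 1 and 2, 9.62, 9.34 and 13.7 CPM in pools 3 to 5) and cry1a (126 and 134 CPM and 53.5, 57.2 and 80.7 CPM) were higher in pools 1 and 2. The order was the opposite for cry3b, at 62.2 and 59.204 CPM and 164, 155 and 123 CPM (log2 difference -1.27, SE 0.13). The related cry3a held 519 and 433 CPM and 731, 686 and 508 CPM and overlapped between the sets. The casein kinase genes csnk1da, csnk1db and csnk1e, whose products mark period proteins for turnover, differed by -0.05, 0.42 and 0.03 on the log2 scale.

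The activators ran the other way from the repressors, though by less. Of 6 genes, 5 stood lower in pools 1 and 2, the median log2 difference was -0.63, and only arntl2 was separated. It held 15.8 and 13.2 CPM in pools 1 and 2 and 35.2, 41.5 and 32.6 CPM in pools 3 to 5, with controls at 6.89 to 13.9 CPM, the highest of them inside the range of pools 1 and 2 (genotype adjusted p = 0.0107, edgeR). For arntl1a the levels were 28.4 and 27.7 CPM and 48.0, 45.6 and 41.5 CPM, and for arntl1b 16.2 and 15.8 CPM and 23.5, 22.7 and 23.0 CPM. Neither overlapped between the sets, but their differences of -0.68 and -0.53 on the log2 scale were under 2-fold. The partner genes clocka and npas2 had differences of -0.79 and -0.59, and clockb of 0.07.

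Output factors differed between the sets as well. Of 9 bZIP genes, 5 were separated, all with higher levels in pools 1 and 2 (2.79% of all genes), and the median log2 difference was 1.83. The activator dbpb stood at 126 and 130.5 CPM in pools 1 and 2, against 3.48, 3.495 and 4.81 CPM in pools 3 to 5 (log2 difference 5.03, SE 0.16), dbpa at 70.8 and 76.4 and 17.7, 19.1 and 20.6 CPM, and tefb at 104 and 94.8 and 36.8, 18.8 and 31.8 CPM. All 3 had a control mean between the sets. Of the nfil3 genes, which encode repressors that compete for the same DNA elements, nfil3-6 stood higher in pools 1 and 2 (18.8 and 18.2 CPM against 3.89, 4.78 and 6.63 CPM) and nfil3-5 lower (117 and 131 CPM against 233, 175 and 164 CPM), and nfil3-5 differed by less than 2-fold. The F-box gene fbxl3l, a relative of the mammalian factor that marks cryptochromes for degradation, had the largest lower difference among genes with a symbol and a mean of at least 5 CPM in the higher set, with 1.47 and 1.59 CPM in pools 1 and 2 and 14.0, 11.5 and 5.58 CPM in pools 3 to 5 (log2 difference -2.63, SE 0.40).

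**Figure D1:**
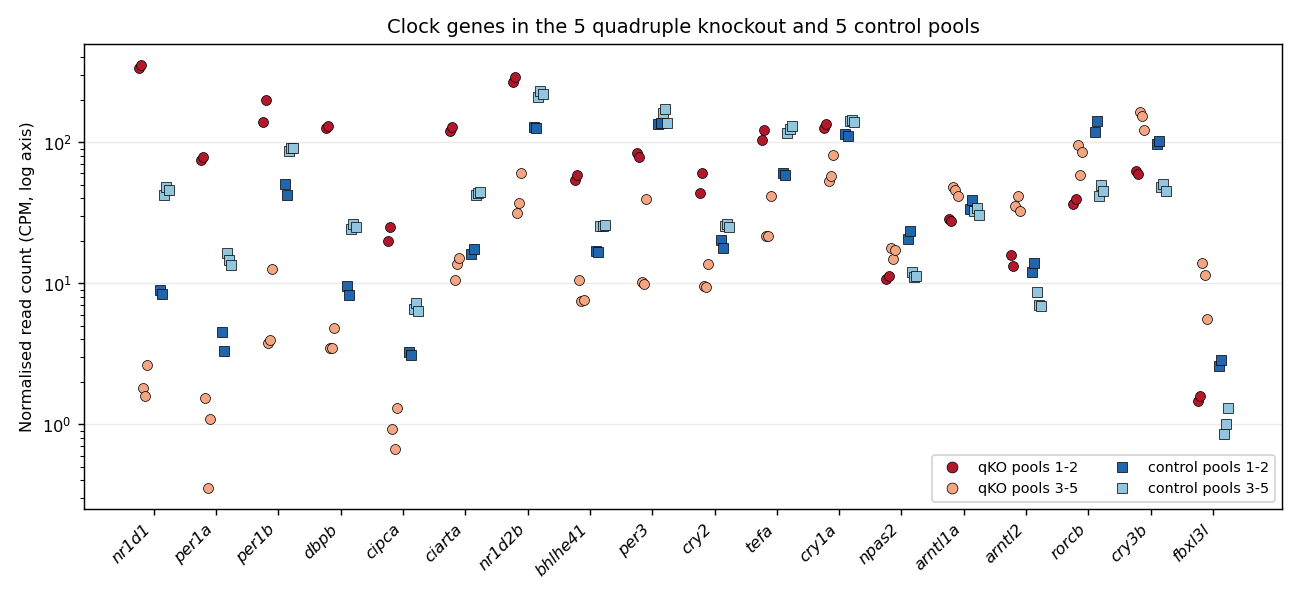
Normalised read counts (CPM, log axis) of 18 clock genes in each of the 5 qKO pools (circles) and 5 control pools (squares), 1 point per pool. The qKO pools of a set sit together for nr1d1, at 334 and 352 CPM against 1.59 to 2.62 CPM, with the controls between them, and the order of the sets turns over for cry3b and fbxl3l.

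Genes induced by light, several of them for DNA repair, were also mostly higher in pools 1 and 2, but this list is not independent of the clock lists. The output factor gene tefa is a member of both, and the list median equals the difference of the period gene per2 given above. Of 13 members 6 were separated, all higher in pools 1 and 2 (2.79% of all genes), and the median log2 difference was 0.76, or 0.47 without pool 2. The photolyase-family gene cry5 held 8.604 and 10.0 CPM in pools 1 and 2 and 1.23, 1.86 and 4.08 CPM in pools 3 to 5, and cry-dash held 24.4 and 28.6 CPM and 8.62, 9.38 and 10.9 CPM. The gene ddb2, for a protein that recognises ultraviolet damage, held 17.8 and 19.7 CPM and 6.599, 5.796 and 10.1 CPM. Controls held 14.7 to 28.4 CPM of ddb2, with control pools 3 to 5 above every qKO pool. Excision repair genes xpc and polh, read from the same list after their values were seen, differed by -0.04 and -0.07 on the log2 scale. The 11 melatonin and pineal genes past the filter had a median of 0.07 and none was separated.

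The exocrine pancreas gave the broadest difference of any list. This gland makes the enzymes that digest protein, fat and starch, and zebrafish larvae begin to feed at about the age sampled here. Of 34 enzyme and lineage genes past the filter, 25 were separated, all with higher levels in pools 1 and 2 (2.79% of all genes). The list median of the log2 difference was 1.46. The amylase gene amy2a stood at 109 and 219 CPM in pools 1 and 2, against 40.7, 16.5 and 41.5 CPM in pools 3 to 5 (log2 difference 2.35, SE 0.67), with controls at 244 to 323 CPM. The astacin protease gene c6ast4 held 93.5 and 188 CPM and 38.8, 16.6 and 31.6 CPM, and the carboxypeptidase gene cpa1 held 12.6 and 28.8 CPM and 7.10, 2.88 and 5.38 CPM. In each of these genes pool 4 was the lowest and pool 2 the highest of the qKO pools.

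The enzymes fixed as markers of the gland kept this order. The trypsin gene prss1 stood at 673 and 1171 CPM and 411, 249.7 and 345 CPM, and the chymotrypsinogen gene ctrb1 at 581 and 1007 CPM and 393, 199 and 283 CPM. Over the 34 genes pool 2 exceeded pool 1 in 33, and pool 4 was the lowest qKO pool in 30, against 51.1% and 22.5% of all genes. Pool 2 lay within reach of the controls: the median member stood at -0.11 on the log2 scale relative to the control mean in pool 2, at -1.11 in pool 1 and at -1.79, -2.59 and -2.06 in pools 3, 4 and 5. In pools 3 to 5, 28 members lay below every control, and in pools 1 and 2 together 13 did, against 17.3% and 14.5% of all genes. The lineage factor ptf1a did not share the pattern, with 2.11 and 2.78 CPM in pools 1 and 2, 4.21, 3.01 and 3.77 CPM in pools 3 to 5 and 2.65 to 4.56 CPM in controls, and was picked after its values were seen. In these bulk samples, here and in the other tissue lists, fewer cells of a type and less RNA per cell cannot be told apart. Without pool 2 the list median was 1.03, and without pool 1 it was 1.96. Several members belong to families of near-identical genes, among which counting may have divided reads.

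Genes of the absorbing gut were split. Of 47 enterocyte genes 20 were separated higher in pools 1 and 2 and 1 lower (2.79% and 0.795% of all genes). The median log2 difference was 0.73, which was 0.42 without pool 2 and 1.11 without pool 1. The brush border protease gene mep1b held 1.23 and 1.47 CPM in pools 1 and 2 and 0.222 and 0.166 CPM in pools 3 and 5, with 0 counts in pool 4. The lysosomal protease gene ctsbb held 7.69 and 11.5 CPM and 2.28, 1.504 and 0.524 CPM, and the endocytic receptor gene lrp2b held 11.0 and 14.5 CPM and 4.76, 3.45 and 0.938 CPM. For mep1b and ctsbb pools 1 and 2 were themselves below every control, at 1.70 to 3.30 and 26.5 to 32.7 CPM. The chitinase gene chia.2 held 257 and 525 CPM and 119, 56.9 and 99.2 CPM, and the peptide transporter gene slc15a1b 30.2 and 57.5 CPM and 14.8, 11.3 and 12.65 CPM. The 1 member separated the other way was the apolipoprotein gene apobb.2, at 4.94 and 5.63 CPM and 9.53, 15.1 and 10.9 CPM, and the marker apoa4b.1, for another apolipoprotein, held 303 and 369 CPM and 311, 376 and 420.1 CPM. The liver list had a median of -0.09 over 44 genes (0.01 without pool 1), and 1 member was separated, the tyrosine aminotransferase gene tat, at 12.9 and 12.9 CPM and 9.54, 4.20 and 3.87 CPM. At any size, 16 liver genes stood lower in pools 1 and 2 without overlap and 5 higher (21.1% and 20.2% of all genes).

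**Figure D2:**
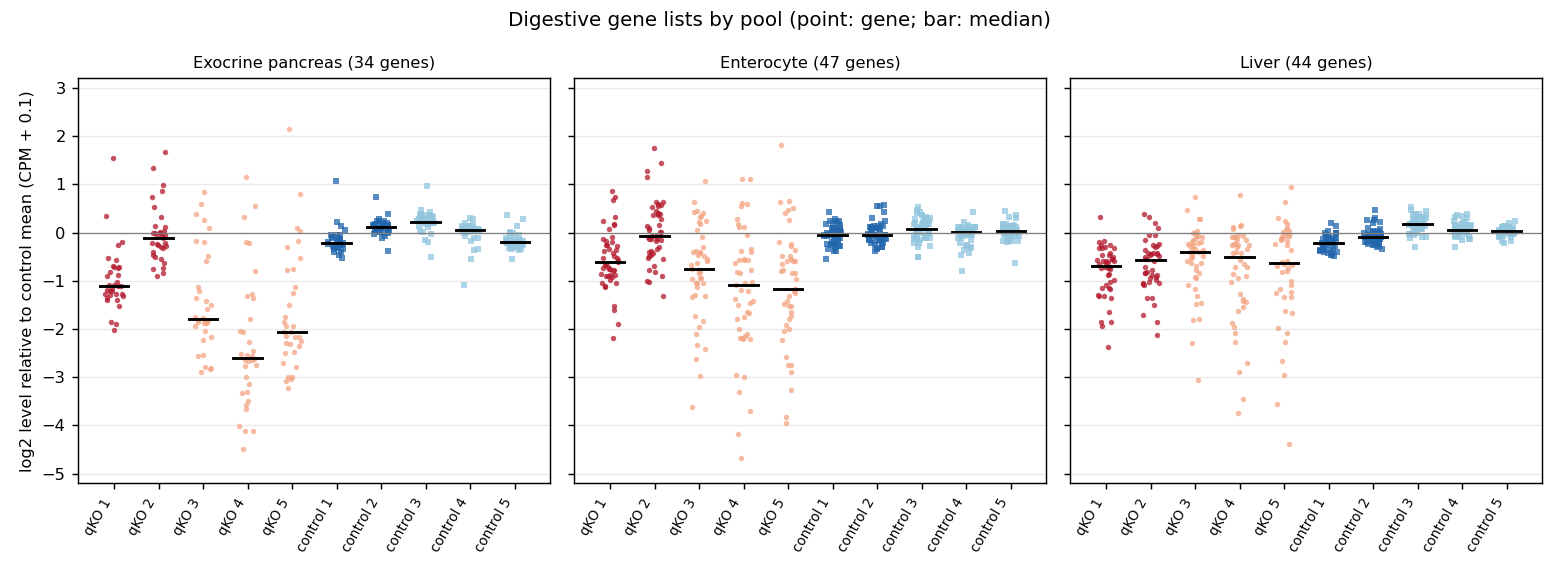
Levels of exocrine pancreas, enterocyte and liver genes in each pool, as log2 of (CPM + 0.1) relative to the mean of the 5 controls, with 1 point per gene and a bar at the list median. The pancreas median is near 0 in qKO pool 2 and lowest in pool 4, and those of liver genes stay close together across the 5 qKO pools.

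Part of the hormone and fasting lists was separated. Of 30 genes responsive to glucocorticoids, 8 were separated, all higher in pools 1 and 2 (2.79% of all genes). Among the 30, 7 had negative differences, and the median log2 difference was 0.43 (0.66 without pool 2). The transcription factor gene klf9, induced by cortisol in fish and mammals, stood at 114 and 110.4 CPM in pools 1 and 2, against 43.3, 10.7 and 3.89 CPM in pools 3 to 5. Its SE of 1.01 around a log2 difference of 3.198 reflects the spread within pools 3 to 5, where pool 3 stood far above pool 5. The cochaperone gene fkbp5 held 267 and 213 CPM and 133, 9.34 and 33.0 CPM, so that here too pool 3 was the closest to the other set. The insulin signalling gene irs2a held 55.2 and 46.2 CPM and 15.3, 9.42 and 6.68 CPM. The control means lay between the sets for all 3, with controls at 23.1 to 35.8 CPM for klf9, 49.9 to 86.9 CPM for fkbp5 and 29.0 to 44.8 CPM for irs2a. The clock gene per1a is also a member of this list.

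Among 45 fasting and gluconeogenesis genes 9 were separated, all higher in pools 1 and 2 (2.79% of all genes). Of the 45, 9 had negative differences, and the median log2 difference was 0.33. The gene for the gluconeogenic enzyme Pck1, pck1, held 309 and 359.8 CPM and 142, 85.7 and 117 CPM, and pdk2b, for a kinase that holds back glucose oxidation, held 84.6 and 80.9 CPM and 25.9, 10.4 and 13.7 CPM. The uncoupling protein gene ucp3 held 25.8 and 19.7 CPM and 16.3, 4.51 and 1.68 CPM, with pool 3 again close to the other set. In all 9 separated genes pool 3 was the highest of its set, as it was in 51.6% of all genes separated with higher levels in pools 1 and 2. Fatty acid synthesis genes (median 0.16, 2 of 29 separated) and cholesterol synthesis genes (median 0.09, 1 of 37) differed little, and the median of the cholesterol list was -0.01 with library totals.

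Immediate early genes, which neurons and other cells induce within minutes of a stimulus, separated in 12 of 38 cases, with a list median of 0.45. All 12 stood higher in pools 1 and 2 (2.79% of all genes). The neuronal activity gene npas4a stood at 30.0 and 17.1 CPM in pools 1 and 2, against 6.08, 4.87 and 9.93 CPM in pools 3 to 5, and fosab at 43.1 and 21.4 CPM and 5.10, 10.9 and 14.6 CPM. The gene egr4 stood at 15.7 and 11.8 CPM and 1.80, 3.76 and 9.69 CPM. Pool 1 was the highest qKO pool for 26 of the 38 genes, against 20.2% of all genes. It was so for all 12 of those separated, against 42.4% of all genes separated with higher levels in pools 1 and 2, where the rule leaves only pool 1 or pool 2 as the highest. Control pools 1 and 2 stood above control pools 3 to 5 as well, at 50.8 and 59.13 against 21.8, 30.0 and 24.8 CPM for npas4a and at 45.5 and 57.0 against 15.2, 20.2 and 18.9 CPM for fosab. The controls are other animals, and the labels do not say whether pools of the same number belong together.

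General stress lists had small median differences. Heat shock genes had a median log2 difference of 0.00 with 1 of 41 members separated in each direction. These were hsf2, which is also a member of the list of light-induced genes (51.2 and 60.5 CPM against 15.8, 15.0 and 20.6 CPM), and the collagen chaperone gene serpinh1b, lower in pools 1 and 2 at 51.3 and 39.0 CPM against 104, 124 and 116 CPM. At any size, 13 heat shock genes stood higher in pools 1 and 2 without overlap and 6 lower (20.2% and 21.1% of all genes). Genes of endoplasmic reticulum and amino acid stress had a median of -0.14, with only slc3a2b, for an amino acid transporter subunit, separated (215 and 193 CPM against 109, 87.8 and 86.9 CPM). At any size, 21 of these 46 genes stood lower in pools 1 and 2 without overlap and 9 higher, against 21.1% and 20.2% of all genes. Relative to the control mean, the median of this list was 0.117 and 0.167 in pools 1 and 2. In pools 3 to 5 it was 0.194, 0.185 and 0.2, so the medians of the sets did not overlap. The gene cdkn1a, for an inhibitor of cell cycle kinases, was separated, at 33.6 and 37.3 CPM in pools 1 and 2 and 14.1, 13.7 and 10.4 CPM in pools 3 to 5. All 5 qKO pools exceeded every control for cdkn1a, at 4.44 to 8.04 CPM in controls (genotype adjusted p = 0.00941, edgeR). Of 45 hypoxia and xenobiotic genes 5 were separated, all higher in pools 1 and 2 (2.79% of all genes), and the list median was 0.13. Among the 5 were cyp3a65 (96.2 and 207 CPM against 44.5, 23.1 and 83.4 CPM) and cyp2ad2 (16.7 and 21.1 CPM against 6.77, 2.57 and 5.99 CPM).

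Mitosis genes had small negative differences between the sets. Of 45 mitosis genes 44 had a negative log2 difference, 35 did not overlap between the sets (21.1% of all genes stood lower without overlap at any size) and none reached 2-fold. The median was -0.38, which was -0.24 without pool 1 and -0.53 without pool 2. The examples that follow were picked after their values were seen. The kinase gene aurka held 9.48 and 10.5 CPM in pools 1 and 2 and 18.1, 16.4 and 19.4 CPM in pools 3 to 5 (log2 difference -0.84), and plk1, for another mitotic kinase, held 42.4 and 52.9 CPM and 69.8, 66.02 and 76.0 CPM. The cyclin gene ccnb1 held 26.2 and 34.4 CPM and 40.9, 41.7 and 50.4 CPM. Pools 3 to 5 were the ones farther from the controls, which stood at 9.23 to 9.50 CPM for aurka and 37.4 to 44.1 CPM for plk1. In pools 3 to 5, 37 of the 45 genes lay above every control, and in pools 1 and 2 together 4 did (18.5% and 15.7% of all genes). Pools 1 and 2 differed here: relative to the control mean the list median was -0.002 in pool 1 and 0.24 in pool 2. It was 0.53, 0.48 and 0.58 in pools 3 to 5 and -0.09 to 0.06 in controls.

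DNA replication genes, active in the phase before mitosis, did not share that order. Their median log2 difference was 0.10 over 47 genes, none was separated, and the sign of the median changed without pool 2 (-0.07). Replication gene mcm5 held 62.7 and 85.7 CPM and 60.4, 62.4 and 74.2 CPM, and pcna held 203 and 246 CPM and 214, 199 and 262 CPM. Pool 2 exceeded pool 1 in all 47 genes, and in 43 of the 45 mitosis genes, and the median level of replication genes relative to the control mean was -0.28 in pool 1 and 0.02 in pool 2, a wider gap than that between the sets.

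Blood genes differed between single pools as well as between the sets. Of 39 globin and erythroid genes 36 had a positive log2 difference and 3 were separated, all higher in pools 1 and 2 (2.79% of all genes). The median was 0.38, which was 0.21 without pool 2 and 0.62 without pool 1. At any size, 16 of the 39 stood higher in pools 1 and 2 without overlap and 1 lower (20.2% and 21.1% of all genes). The gene for the first enzyme of erythroid heme synthesis, alas2, stood at 52.1 and 81.5 CPM in pools 1 and 2, against 49.2, 35.1 and 17.6 CPM in pools 3 to 5. The erythroid factor gene klf1 stood at 4.82 and 8.02 CPM and 4.24, 3.58 and 1.72 CPM. The membrane anion exchanger gene slc4a1a, at 87.2 and 144 CPM and 81.8, 53.6 and 40.0 CPM, missed the size rule narrowly with a log2 difference of 0.999, and the globin gene hbae3, picked after its values were seen, stood at 436 and 701 CPM and 662, 616 and 316 CPM and overlapped. Pool 2 was the highest qKO pool for 30 of the 39 genes and pool 5 the lowest for 29, against 24.3% and 18.4% of all genes. In pools 1 and 2 together 24 members lay above every control, against 15.7% of all genes, and in pools 3 to 5 together 9 did, a share near the 18.5% of all genes.

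**Figure D3:**
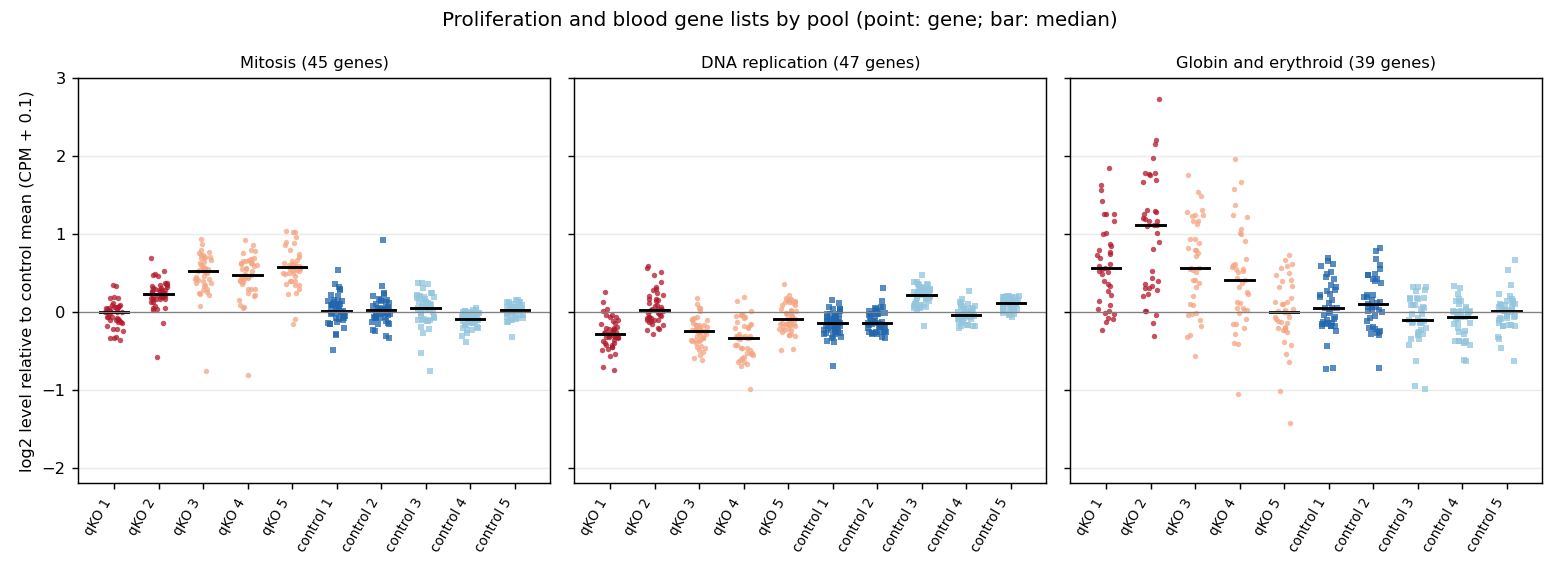
Levels of mitosis, DNA replication and erythroid genes in each pool, as log2 of (CPM + 0.1) relative to the mean of the 5 controls, with 1 point per gene and a bar at the list median. The mitosis medians of qKO pools 2 to 5 sit above all control pools, with pool 2 below pools 3 to 5. The replication medians overlap, and the erythroid medians are highest in qKO pool 2 and nearest the controls in pool 5.

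Photoreceptor genes separated in 15 of 58 cases, 14 higher and 1 lower in pools 1 and 2 (2.79% and 0.795% of all genes). The list median of the log2 difference was 0.51. The calcium sensor gene guca1c, whose product tunes guanylate cyclase in cones, held 46.8 and 44.0 CPM in pools 1 and 2 and 3.58, 3.72 and 8.52 CPM in pools 3 to 5 (log2 difference 3.22, SE 0.41). Phosphodiesterase subunit gene pde6ha held 60.8 and 61.9 CPM and 5.11, 7.04 and 19.8 CPM, with pool 5 above pools 3 and 4. The rod opsin gene rho, at 1911 and 1776 CPM and 1121, 894 and 929 CPM, did not overlap but differed by less than 2-fold, and controls exceeded every qKO pool at 2309 to 3600.1 CPM. Pool 1 was the highest qKO pool for 41 of the 58 genes, against 20.2% of all genes. Lens crystallins, by contrast, overlapped between the sets with a median of 0.18, which was -0.03 without pool 1.

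Other tissue lists differed by smaller amounts. Skin and ionocyte markers had a median log2 difference of 0.31 with 1 of 42 separated, skeletal muscle markers 0.21 with 0 of 41, and nervous system markers 0.01 with 0 of 42. Over all genes 3.59% were separated. At any size, 28 skin, 21 muscle and 9 nervous system genes stood higher in pools 1 and 2 without overlap (20.2% of all genes). In the same order 1, 1 and 11 stood lower (21.1% of all genes). Neutrophil and macrophage markers had a median of 0.28, but of the 5 separated members cpa5 is a digestive enzyme gene and also a member of the pancreas list. The other 4, among them grn1 (6.89 and 9.86 CPM and 6.73, 3.32 and 2.83 CPM), were under 10 CPM in every qKO pool. Of the 43 markers past the filter 4 were separated higher in pools 1 and 2 and 1 lower (2.79% and 0.795% of all genes). The lower one was mmp13a, at 1.59 and 1.52 CPM and 2.82, 3.45 and 6.29 CPM. Acute phase and interferon genes had a median of 0.18 (0.37 without pool 2). Of 35 members 3 were separated higher in pools 1 and 2 and 2 lower (2.79% and 0.795% of all genes). The lower ones were hamp and mmp13a, with log2 differences of -2.08 and -1.32. Among the higher ones crp2 held 11.4 and 18.4 CPM and 8.70, 3.41 and 2.399 CPM, far below the controls at 103 to 179 CPM in both sets. Hatching gland and stage markers had a median of 0.42 with 1 of 12 separated, ctsl.1 (43.8 and 70.5 CPM and 18.8, 10.4 and 19.4 CPM). The 77 ribosomal protein genes all stood higher in pools 1 and 2 with a median of 0.21, and 18 did so without overlap, a share near the 20.2% of all genes that did. Relative to the control mean their median level was -0.27 in pool 1 and -0.09 in pool 2, and -0.41, -0.53 and -0.23 in pools 3, 4 and 5, so pool 5 lay above pool 1. With library totals the median difference was 0.11, and without pool 2 it was 0.12. Mitochondrially encoded genes had a median of 0.32 (0.54 without pool 3, 0.18 without pool 4 and 0.19 without pool 2). In this list 6 of 25 were separated, all higher in pools 1 and 2 (2.79% of all genes). The 5 of these with the largest differences were few in reads, at 4.91 CPM or less in every qKO pool. Their log2 differences ran from 1.23 to 2.92, and from 0.23 to 2.63 with libraries thinned to equal totals.

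Over all 32 lists, the median level per pool did not overlap between the qKO sets for 18, and between control pools 1 and 2 and control pools 3 to 5 it did not overlap for 24, so a lack of overlap is not particular to the knockouts. BMP and TGF-beta target genes, the read-out nearest to the disrupted genes, showed no common difference between the sets. Of 38 members 19 stood higher and 19 lower in pools 1 and 2, and the median log2 difference was -0.01. Only hamp, which encodes the iron hormone hepcidin and is a BMP target in liver, was separated, at 0.837 and 0.524 CPM in pools 1 and 2 and 2.04, 2.52 and 4.80 CPM in pools 3 to 5 (log2 difference -2.08, SE 0.49). Every qKO pool lay below the controls, which held 7.02 to 12.4 CPM, and pools 1 and 2 were the farther from them (genotype adjusted p = 0.00986, edgeR).

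**Figure D4:**
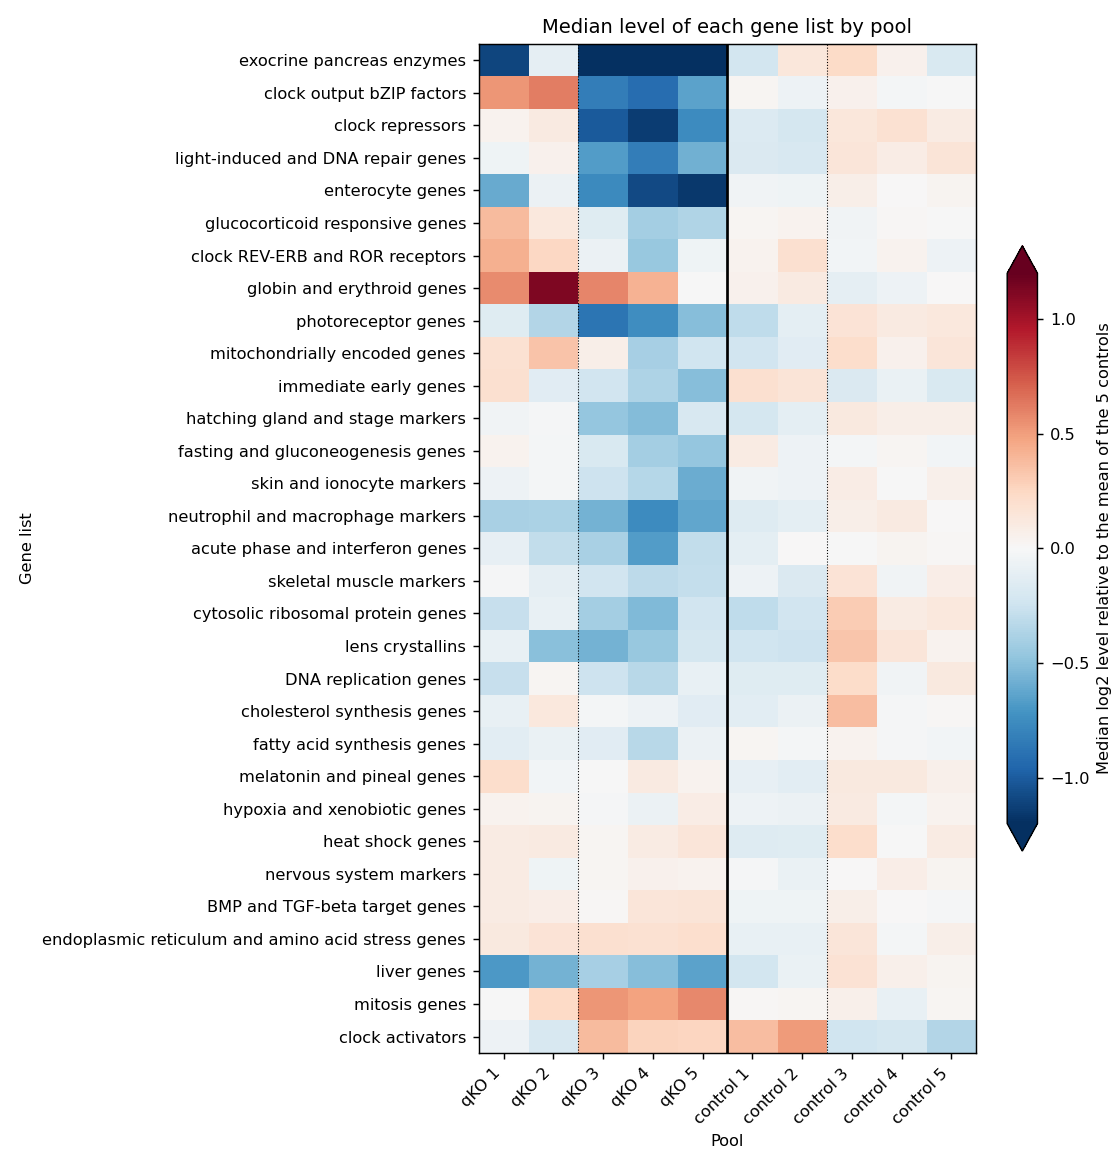
Median level of 31 gene lists in each pool, as log2 relative to the mean of the 5 controls, with lists ordered by their difference between the qKO sets and colours cut at the ends of the scale. For 18 lists the medians of qKO pools 1 and 2 do not overlap with those of pools 3 to 5; the widest gaps are at the top (exocrine pancreas, output factors, clock repressors) and the activators and mitosis genes at the bottom run the other way.

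The separated genes outside these lists were mixed. Among the 10 largest higher differences, mtdhb held 12.8 and 19.1 CPM in pools 1 and 2 and 0.728, 0.221 and 0.444 CPM in pools 3 to 5 (log2 difference 5.12), and the ammonia transporter gene rhcga held 87.0 and 75.5 CPM and 23.5, 8.01 and 2.102 CPM, with a wide spread within the set of 3. The 10 largest lower differences fell in genes of various kinds. The mitochondrial folate enzyme gene mthfd1l held 27.0 and 28.9 CPM in pools 1 and 2 and 76.8, 82.7 and 66.4 CPM in pools 3 to 5 (log2 difference -1.42, SE 0.10). The acyl-CoA thioesterase gene acot17 held 1.95 and 2.45 CPM and 6.00, 8.01 and 9.21 CPM, and fabp11b, for a fatty acid binding protein, held 3.66 and 3.29 CPM and 6.92, 9.56 and 14.4 CPM. In these 3 genes all qKO pools exceeded all controls (genotype adjusted p = 0.00249, 0.00635 and 0.000642, edgeR; 25.8% of all genes passed that test), and pools 3 to 5 were the farther from the controls. The potassium channel gene kcnk5a held 4.26 and 4.25 CPM and 13.4, 13.3 and 17.2 CPM, and ewsr1b 2.11 and 3.06 CPM and 9.38, 10.0 and 10.4 CPM. Also among the 10 were afp4, acot19, asb15b and the protocadherin gene pcdh1g26, with log2 differences of -2.42, -1.43, -1.76 and -1.57; without pool 1 that of pcdh1g26 was -1.04, without pool 2 that of acot19 was -0.99, under the size rule, and without pool 5 that of asb15b was -2.35.

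Where the controls lay depended on the direction. Of the 639 genes separated with higher levels in pools 1 and 2, the control mean lay between the qKO sets for 285 (44.6%), above both for 321 and below both for 33, and it was nearer to pools 1 and 2 for 507 (79.3%). Of the 182 lower genes, the control mean lay between the sets for 90, above both for 57 and below both for 35, and it was nearer to pools 3 to 5 for 106. Of the 639 higher genes, 73.9% lay below every control in all of pools 3 to 5 (17.3% of all genes). In pools 1 and 2, 25.7% lay below and 24.9% above every control (14.5% and 15.7% of all genes). Of the 182 lower genes, 48.9% lay below every control in pools 1 and 2 (14.5% of all genes). In pools 3 to 5, 31.3% lay above every control (18.5% of all genes). The control mean was placed for separated genes only, which the same levels chose, so these counts test nothing. For the larger group of genes pools 3 to 5 were the ones farther from wild type, whereas for nr1d1, per1a and dbpb neither set matched the controls. Clock genes did not share one position. Every control exceeded every qKO pool for per3 (134 to 172 CPM in controls) and bhlhe40 (239 to 279 CPM). For cry1a the controls, at 110 to 144 CPM, spanned the levels of pools 1 and 2.

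The control pools with the same numbers mostly did not differ in the same way. Some lists ran the same way in both genotypes, without overlap of the list medians per pool. Immediate early genes (median log2 differences 0.45 and 0.35 in knockouts and controls) and glucocorticoid responsive genes (0.43 and 0.06) stood higher in pools 1 and 2. Genes of endoplasmic reticulum and amino acid stress stood lower (-0.14 and -0.18). When control pools 1 and 2 were set against control pools 3 to 5 by the rule used for the knockouts, 458 genes (2%) stood higher and 113 (0.494%) lower. Of the 639 genes higher in qKO pools 1 and 2, 14 were separated in the same direction in controls and 22 in the opposite one, and of the 182 lower genes 5 and 10 were. Control pools 1 and 2 held 8.93 and 8.44 CPM of nr1d1 and control pools 3 to 5 held 42.1, 48.0 and 45.9 CPM, so the order of the sets was turned over, as it was for dbpb (9.61 and 8.24 CPM against 24.4, 26.3 and 25.1 CPM) and, in the lower genes, for fbxl3l (2.59 and 2.85 CPM against 0.858, 1.00 and 1.31 CPM). For nr1d1 and dbpb the difference was larger in the knockouts, with 7.43 against -2.38 on the log2 scale for nr1d1 and 5.03 against -1.50 for dbpb. For others it was larger in the controls, with -1.04 against 1.52 for rorcb and -0.60 against 1.26 for nfil3-5, and the activator list had medians of -0.63 and 0.74. The exocrine pancreas list, with a median of 1.46 in the knockouts, had a median of -0.08 and no separated member in the controls.

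**Figure D5:**
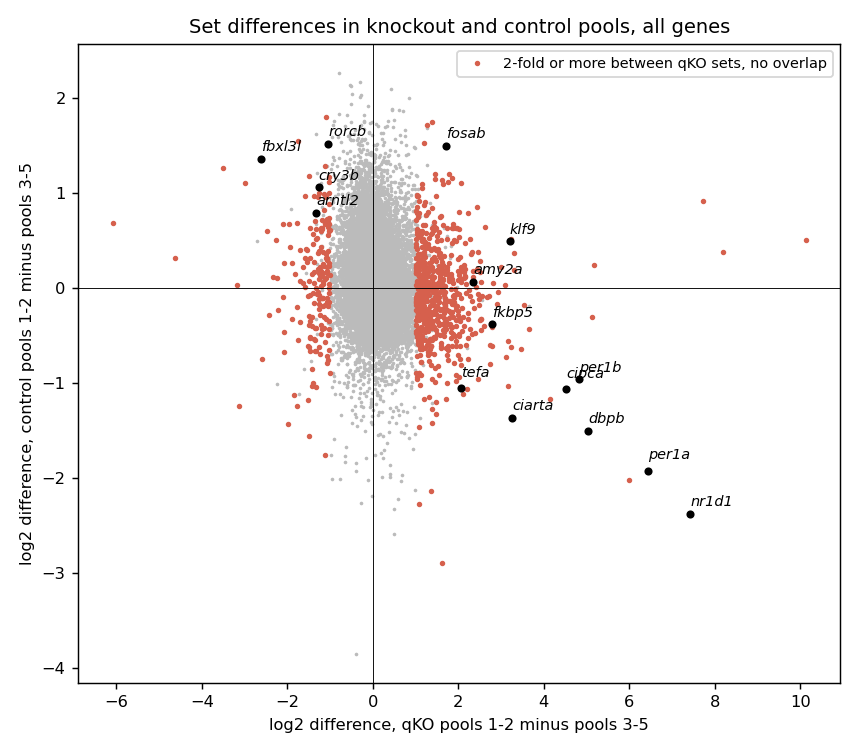
Log2 difference between pools 1-2 and pools 3-5 in the knockouts (horizontal) and in the controls (vertical), 1 point per gene for 22894 genes, with genes separated in the knockouts in red and some named genes in black. The named clock genes lie in the lower right and upper left, where the sets differ in opposite directions in the genotypes, whereas amy2a and fkbp5 lie near 0 on the control axis; the Spearman correlation over all genes is -0.13.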

How the data were processed

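Total RNA of 5 qKO and 5 control pools of whole larvae was measured, and the counts deposited by the authors are whole numbers of reads per Ensembl gene for 32520 genes, not normalised. Per the submitters' processing notes the tools were FastQC 0.11.9, Trim Galore 0.6.6, featureCounts from Subread 2.0.0 and MultiQC 1.9, with the GRCz11 build. The aligner, the annotation release and the use of strand in counting are not given in the sources used here, so overlapping and antisense genes cannot be told apart. Every column matched 1 library and no entry lacked a gene. No coordinates or sequences are given, because no genome of that build was used here.

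The analysis used edgeR 4.0.16 in R 4.3.3: filterByExpr over the 10 libraries, TMM scaling, and log2 CPM with a prior count of 2. A gene was called separated when its CPM did not overlap between pools 1 and 2 and pools 3 to 5 and its mean log2 CPM differed by at least 1. Differences are pools 1 and 2 minus pools 3 to 5, and their SE comes from the spread within the sets. List values per pool are medians over members of log2 CPM minus the control mean. For the genotypes edgeR's quasi-likelihood fit was used in its robust form, with Benjamini-Hochberg adjusted p and without a block for the replicate number, and depth measures with two-sided exact permutation tests. P-values and SEs rest on the spread between pools, and floors cover counting error only.

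The pool sets, the members and the 32 gene lists were chosen with earlier results of these data known. Of 1225 listed genes 1179 were found and 1118 passed the filter. The cryptochrome genes cry3a and cry3b entered their list after the files had been read. Named were the 4 targeted genes, all members of the 4 clock lists, the 10 largest separated differences in each direction with a symbol and a mean of at least 5 CPM in the higher set, and at most 5 separated members of each list. Genes named outside this rule are marked in the text, except those listed as cell type markers (prss1, ctrb1, slc15a1b, apoa4b.1, slc4a1a and rho) and apobb.2, mcm5 and pcna, which were picked after their values were seen.

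Alternatives were DESeq2 1.42.0 size factors and its Wald test, upper quartile scaling, library totals, TMM of the qKO libraries alone, other filters, prior counts and size thresholds, thinning to equal totals, the replicate block and each library left out. Same-numbered pools were not treated as pairs, because the labels name no pairing. The correlations of their deviations were -0.0002, -0.146, -0.0607, -0.0667 and -0.0485. These values do not settle whether pools of the same number shared a clutch or handling. Both procedures were tested on simulated counts. One gene and the list named for it are not reported here.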

Additional observations from a re-analysis of the deposited data

Results flagged for a closer look

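Of 159 checks for a sample far from the others of its group, 4 marked one, and chance alone marks about 1 in 20 groups. The total of qKO pool 5, 191289475 counts, lay far above the other 4. The median level of fatty acid synthesis genes in qKO pool 4, -0.33 on the log2 scale relative to the control mean, lay below the other qKO pools. Pool 2 had less roraa, a ROR receptor gene, than the other qKO pools, at 55.4 CPM, and pool 3 had more hlfb, a bZIP output factor gene, at 14.9 CPM.

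Lists were marked where pools 1 and 2 differed from pools 3 to 5 in opposite directions in knockouts and controls, with no overlap in either. Named genes also had to reach a 2-fold difference in both genotypes. These rules marked 10 lists and 12 named genes. That contrast between genotypes was not tested. The differences below are log2 differences of the knockouts minus those of the controls. Among clock lists it was -1.14 for the activators and 1.37 for the repressors. For light-induced and DNA repair genes it was 1.00. In the tissue lists it was 0.75 for enterocyte genes, 0.46 for neutrophil and macrophage markers, 0.81 for photoreceptor genes, 0.40 for skeletal muscle markers and 0.45 for skin and ionocyte markers. Hatching gland and stage markers had 0.62 and mitochondrially encoded genes 0.77.

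Among the marked genes the largest values were those of clock genes: 9.80 for nr1d1, 8.36 for per1a, 6.54 for dbpb, 5.59 for cipca and 4.63 for ciarta. Smaller ones of the same sign were 3.24 for cry5, 3.12 for tefa and 2.88 for hsf2. The sign was negative for fbxl3l (-3.99), asb15b (-3.31), rorcb (-2.56) and cry3b (-2.33). The size rule left out genes that turned over without overlap but by less in the controls. One was per1b, with log2 differences of 4.83 in the knockouts and -0.96 in the controls.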

How the results depend on the processing

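The counts of separated genes depended on the filter and on the size asked for. Without a filter 919 genes stood higher and 397 lower in pools 1 and 2, and with genes kept from a mean of 1 CPM up 428 and 80 did. A log2 difference of at least 0.5 gave 1786 and 975, and one of at least 2 gave 109 and 19. Leaving out 1 qKO pool gave 588 to 849 higher genes (639 with all) and 192 to 369 lower genes (182 with all), with 312 lower without pool 1 and 369 without pool 2. It gave 19 to 25 lists without overlap (18 with all), since fewer pools overlap less easily. Other scalings, prior counts and thinning kept both counts within 1.5 times; library totals gave 521 and 259. The added alternatives, chosen after seeing the data, left out the clock genes (620 and 179) or the 20 most counted genes (641 and 182). Of the list medians under alternatives 385 moved by less than the spread between pools and 31 by more, and of the values of named genes 1553 and 38, and none of the separated genes changed sign. The medians of the melatonin, DNA replication, liver, heat shock, nervous system, BMP target and lens lists changed sign when 1 pool was left out. All 4 targeted genes passed the genotype test under every alternative. With the replicate block, which the check of pairing does not back, all 4 of 4 did too, with adjusted p = 5.94e-05, 0.000532, 0.00997 and 0.00227 (edgeR), and 4543 genes were called against 5910 without it; no sample correlated best with its own number. In depth the total counts limit genes under about 0.145 CPM in pool 4. With 2 pools against 3 and a division taken from these libraries, no difference in gene levels between the sets has a test.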
